A study of Mus musculus with 10 samples.

Results

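Peroxisomes are small organelles that shorten very long and branched fatty acids and make the first intermediates of ether lipids such as the plasmalogens of heart membranes. Peroxins, the products of the Pex genes, insert the membrane proteins, import the enzymes from the cytosol and divide the organelle. Inside it, acyl-CoA oxidases, bifunctional enzymes and thiolases carry out beta-oxidation, alpha-oxidation removes a carbon from methyl-branched acids such as phytanic acid, and several of these genes are known targets of the nuclear receptor PPAR alpha. The 29 genes described here were chosen by name from the 24888 genes of the series' expression table. They are 12 peroxins, 3 transporters of the ABCD family, 11 enzymes of fatty acid oxidation and 3 enzymes of ether lipid synthesis.

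The RNA came from whole heart tissue of mice labelled male and given as 8 to 10 weeks old, all under sham conditions. SPOP_CKI hearts (5 libraries) overexpressed SPOP, the substrate adaptor of a cullin-3 ubiquitin ligase, by the αMHC-Cre system, in which Cre recombinase is made in cardiomyocytes under the alpha-myosin heavy chain promoter. Cre_control hearts (5 libraries, titled WT) have the genotype Myh6Cre, so both groups carry Cre and neither is free of it. The strain is not stated. Libraries were made from poly(A) RNA and held 15316293 to 17114869 reads.

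Values are reads divided by a size factor of each library, called scaled reads below. The overexpressed gene was checked first, and Spop averaged 31897 ± 6254 in SPOP_CKI against 3425 ± 317 in Cre_control (SD, n = 5 each; exact permutation test, two-sided p = 0.00794, the smallest that 252 splits give). SPOP_CKI 3 stood apart, with reads for 13167 genes against 18531 to 20806 in the other libraries. SPOP_CKI 1, SPOP_CKI 3 and Cre_control 5 went against the label male. They held 6491, 6578 and 4491 scaled reads of Xist, against at most 5.31 in the other 7 libraries, and none of the Y-linked Ddx3y, Eif2s3y, Kdm5d and Uty. For each of the 29 genes that was called, with these libraries or without them, the fold change is given both ways.

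The promoters of 4 of the genes on which the results turn are shown first, as windows of 250 bases before and 50 after the annotated start, from RefSeq on GRCm38.p6. They belong to the oxidation genes Ehhadh and Ech1, which had the largest decreases of their class, and to the ether lipid genes Agps and Far1, which rose. Capitals mark the CCAAT box (CCAAT, or ATTGG on the other strand). The Ehhadh window lies at chr16:21787785-21788084 (minus strand), that of Ech1 at chr7:28825088-28825387 (plus strand), that of Agps at chr2:75831927-75832226 (plus strand) and that of Far1 at chr7:113513584-113513883 (plus strand).
Ehhadh: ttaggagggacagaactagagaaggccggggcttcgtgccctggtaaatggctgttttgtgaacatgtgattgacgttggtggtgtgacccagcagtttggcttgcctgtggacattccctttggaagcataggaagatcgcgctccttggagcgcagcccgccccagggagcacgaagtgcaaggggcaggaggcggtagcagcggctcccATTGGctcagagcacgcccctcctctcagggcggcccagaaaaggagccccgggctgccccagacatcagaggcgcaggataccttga
Ech1: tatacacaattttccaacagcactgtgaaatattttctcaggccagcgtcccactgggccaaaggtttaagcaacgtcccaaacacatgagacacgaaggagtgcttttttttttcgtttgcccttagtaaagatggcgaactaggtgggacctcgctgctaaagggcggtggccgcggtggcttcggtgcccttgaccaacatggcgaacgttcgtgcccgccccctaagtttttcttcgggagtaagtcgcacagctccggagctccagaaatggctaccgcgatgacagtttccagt
Agps: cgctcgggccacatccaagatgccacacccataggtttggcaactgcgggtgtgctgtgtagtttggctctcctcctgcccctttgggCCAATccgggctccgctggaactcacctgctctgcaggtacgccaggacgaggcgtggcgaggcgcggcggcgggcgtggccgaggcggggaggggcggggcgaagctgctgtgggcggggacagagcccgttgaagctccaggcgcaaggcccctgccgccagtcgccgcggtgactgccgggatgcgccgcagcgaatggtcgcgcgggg
Far1: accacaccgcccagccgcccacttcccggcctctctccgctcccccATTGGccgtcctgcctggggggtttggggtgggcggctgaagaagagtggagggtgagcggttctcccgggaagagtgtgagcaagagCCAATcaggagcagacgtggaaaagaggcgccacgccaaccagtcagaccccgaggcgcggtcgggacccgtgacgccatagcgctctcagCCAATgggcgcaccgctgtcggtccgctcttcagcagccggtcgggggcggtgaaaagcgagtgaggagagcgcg

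The box occurred 3 times in the Far1 window, once each in those of Ehhadh and Agps, and not in that of Ech1. Windows were at hand for 23 of the 29 genes (27 windows), and 10 windows, of 9 genes, held it, as did 37.4% of all 32851 windows of this length. The GC content of the printed windows was 60.7% for Ehhadh, 52.3% for Ech1, 71.0% for Agps and 67.7% for Far1. The peroxisome proliferator response element, a pair of AGGNCA half-sites a single base apart, was searched on both strands. None of the 27 windows held it, and 0.381% of all windows did. At that rate a match among 27 windows would be rare, so its absence says little. Bases outside the windows were not searched. The half-site AGGTCA, which the longer motif can contain, occurred in the windows of Phyh and Scp2 and in 16.3% of all windows. A motif match is a description of these letters and not a binding site.

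Of the 29 genes, 28 had the reads needed for the test (at least 10 scaled reads in at least 5 libraries). In SPOP_CKI 10 of the 28 fell and 2 rose relative to Cre_control, and 16 did not pass (limma on log2(value + 1), adjusted p under 0.05 over 14212 genes). Over all genes tested, 12.3% were called lower and 10.0% higher, 22.3% in all. The genes that fell were the peroxins Pex16, Pex19, Pex6, Pex26 and Pex11a and the oxidation enzymes Acox3, Ehhadh, Acaa1a, Phyh and Ech1. The genes that rose were Agps and Far1, both of ether lipid synthesis. The median log2 fold change of the 28 was −0.67, beside −0.11 over all genes tested. Of the 28, 22 were negative, as were 7927 of the 14212 genes tested. In the authors' deposited table, 10 of the 29 are listed as lower and 2 as higher, and all 12 are among those called here.

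The 12 called genes were also those whose groups did not overlap, beside 21.3% of all genes tested. Of the 28, 10 had every SPOP_CKI library below every control and 2 had every SPOP_CKI library above, beside 12.3% and 9.01% of all genes tested. In whole heart RNA, fewer cells of a type and less RNA per cell cannot be told apart.

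The count of lower genes depended on single libraries. Without SPOP_CKI 3 it was 17 of 28, with 17.3% of all genes called lower and 13.7% higher, and the added genes were Pex7, Pex10, Pex14, Hsd17b4, Scp2, Amacr and Abcd3. Without the 3 libraries that held Xist it was 17 as well, with 17.0% of all genes lower and 13.7% higher. Without Cre_control 1 it was 6, with 7.48% of all genes lower and 6.33% higher. Agps and Far1 were called higher in each of these fits.

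**Figure D1:**
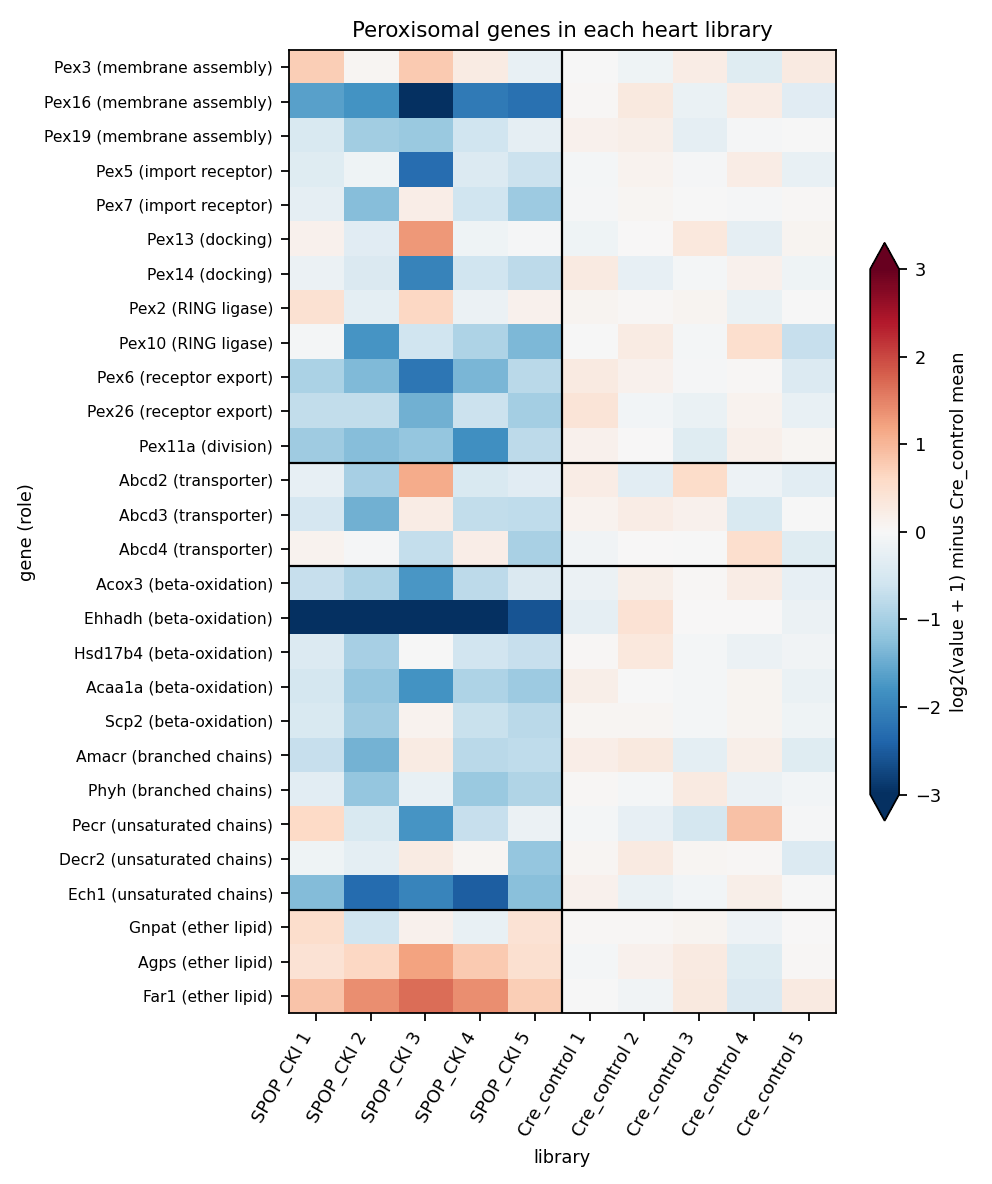
Level of each of the 28 tested genes (rows, with their role) in each library (columns, SPOP_CKI left of Cre_control), as log2(value + 1) minus the mean of the Cre_control libraries. The colour scale ends at −3 and 3. Ehhadh is blue in all 5 SPOP_CKI libraries, Agps and Far1 are red in all 5, and SPOP_CKI 3 differs from the other SPOP_CKI libraries in many rows.

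Beta-oxidation in peroxisomes runs through an oxidase, a bifunctional enzyme that hydrates and dehydrogenates, and a thiolase, and the largest change among the 28 genes was at the second of these. Ehhadh (ENSMUSG00000022853, mm10 chromosome 16, 21761287 to 21787807, minus strand) encodes the bifunctional enzyme of straight-chain and dicarboxylic acids. It had 59.6, 46.3, 0, 58.4 and 104 scaled reads in SPOP_CKI 1 to 5, against 521, 845, 634, 634 and 552 in Cre_control 1 to 5. All SPOP_CKI libraries lay far below all controls, SPOP_CKI 3 had no read, and SPOP_CKI 5 was the highest of its group. The SPOP_CKI mean was 8.42% of the control mean, and 10.5% without SPOP_CKI 3. Ehhadh fell by 4.48 on the log2 scale (SE 1.05, limma adjusted p = 0.013), a value to which the pseudocount and the library at 0 contribute. Without SPOP_CKI 3 the fall was smaller and its error narrower, with a log2 fold change of −3.27 (SE 0.23, adjusted p = 5.5e-06). Without the 3 libraries with Xist it was −3.29 (adjusted p = 0.000199). The authors' deposited table gives a log2 fold change of −3.57.

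Hsd17b4, the other bifunctional enzyme, handles branched and very long chains. It had 1479, 989, 1974, 1326 and 1222 scaled reads in SPOP_CKI 1 to 5, against 2015, 2474, 1889.9, 1743 and 1843 in Cre_control 1 to 5. In 4 of 5 SPOP_CKI libraries it lay below every control, and SPOP_CKI 3 lay among the controls. The log2 fold change was −0.54 (95% interval −0.95 to −0.13, adjusted p = 0.0603). Without SPOP_CKI 3 it was −0.67 and passed the test (adjusted p = 0.00854), as it did without the 3 libraries with Xist (log2 −0.78).

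Acox3, an acyl-CoA oxidase that acts on branched chains, fell in SPOP_CKI. It had 332, 285, 160, 312 and 401 scaled reads in SPOP_CKI 1 to 5, against 474, 605, 554, 631 and 454 in Cre_control 1 to 5. The highest SPOP_CKI library, SPOP_CKI 5, stayed below the lowest control, and SPOP_CKI 3 was the lowest. The fold change was 1.88-fold lower (log2 −0.91, SE 0.23, limma adjusted p = 0.0175). With SPOP_CKI 3 left out the log2 difference was −0.71, and with all libraries that held Xist left out −0.77.

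The thiolase gene Acaa1a (ENSMUSG00000036138, chromosome 9, 119339676 to 119350299, plus strand) fell as well. It had 1093, 702, 452, 826 and 729 scaled reads in SPOP_CKI 1 to 5, against 1772, 1548, 1493, 1666 and 1369 in Cre_control 1 to 5. The groups were separate, and SPOP_CKI 3 was again the lowest. Acaa1a was 2.14-fold lower (log2 −1.10, SE 0.21, limma adjusted p = 0.00487), with a log2 fold change of −0.92 without SPOP_CKI 3 and of −1.11 without the libraries with Xist. Its near-identical copy Acaa1b was almost silent, with 1.76 ± 3.01 scaled reads in SPOP_CKI and 4.88 ± 2.48 in Cre_control (n = 5 each), and was not tested. How reads that fit both copies were counted is not stated, so the split between Acaa1a and Acaa1b is uncertain. Of the exon bases of Acaa1a, 6.57% also belong to Myd88 on the opposite strand, and the labels do not say whether the counting used strand.

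Scp2, whose gene makes both a thiolase of branched chains and a lipid carrier, had 3211, 2099.8, 4730.1, 2803 and 2534 scaled reads in SPOP_CKI 1 to 5. In Cre_control 1 to 5 it had 4574, 4645, 4224, 4661 and 4059.9. SPOP_CKI 3 was above every control and the other 4 were below. The log2 fold change was −0.58 (95% interval −1.02 to −0.14, adjusted p = 0.059), and −0.75 without SPOP_CKI 3 (adjusted p = 0.00437) or −0.88 without the libraries with Xist (adjusted p = 0.00529).

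Among the enzymes of branched chains, Phyh, the phytanoyl-CoA hydroxylase that opens alpha-oxidation, fell in SPOP_CKI. It had 7599, 4238, 8056, 4382 and 5107 scaled reads in SPOP_CKI 1 to 5, against 9641, 9146, 11468, 8434 and 8963 in Cre_control 1 to 5. The groups did not overlap, but SPOP_CKI 3 came close to the lowest control, Cre_control 4. Phyh was 1.67-fold lower (log2 −0.74, SE 0.21, limma adjusted p = 0.0286). The call was lost when SPOP_CKI 2, SPOP_CKI 4, Cre_control 1, Cre_control 2 or Cre_control 3 was left out and with quantile normalization (adjusted p 0.0536 to 0.0701). Without SPOP_CKI 3 the log2 fold change was −0.87, and without the 3 libraries with Xist −1.08.

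Amacr, the racemase that prepares methyl-branched acyl-CoA for oxidation, averaged 242 ± 111 scaled reads in SPOP_CKI and 370.5 ± 76.6 in Cre_control (n = 5 each). In 4 of 5 SPOP_CKI libraries it was below every control, and SPOP_CKI 3, with 430.0, stood among the highest controls. The log2 fold change was −0.69 (95% interval −1.30 to −0.08, adjusted p = 0.0969), and −0.92 without SPOP_CKI 3 (adjusted p = 0.00616) or −1.09 without the libraries with Xist (adjusted p = 0.0068).

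Among the enzymes for unsaturated chains, Ech1 (ENSMUSG00000053898, chromosome 7, 28825217 to 28832247, plus strand) fell. It encodes a dienoyl-CoA isomerase found in both peroxisomes and mitochondria. It had 10012, 4996, 6231, 4484 and 10379 scaled reads in SPOP_CKI 1 to 5, against 26906, 21429.9, 23409, 28012 and 24623 in Cre_control 1 to 5. The groups were far apart, and within SPOP_CKI the libraries 1 and 5 were the highest. Ech1 was 3.64-fold lower (log2 −1.87, SE 0.25, limma adjusted p = 0.000943), and the change was −1.83 without SPOP_CKI 3 and −2.01 without the libraries with Xist.

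The other enzymes of unsaturated chains did not pass. Pecr, an enoyl-CoA reductase, averaged 90.9 ± 51.0 scaled reads in SPOP_CKI and 119.9 ± 51.6 in Cre_control, with a log2 fold change of −0.50 (95% interval −1.41 to 0.41). Decr2, a dienoyl-CoA reductase, averaged 203 ± 64.6 in SPOP_CKI and 234 ± 38.7 in Cre_control, with a log2 fold change of −0.26 (95% interval −0.83 to 0.31). Both intervals include falls as large as those of Pex19 and Phyh, which were called. In all, 5 of the 10 tested oxidation genes fell and none rose, beside 12.3% called lower and 10.0% higher over all genes tested. Their median log2 fold change was −0.72. All 10 fold changes were negative, as were those of 7927 of the 14212 genes tested.

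**Figure D2:**
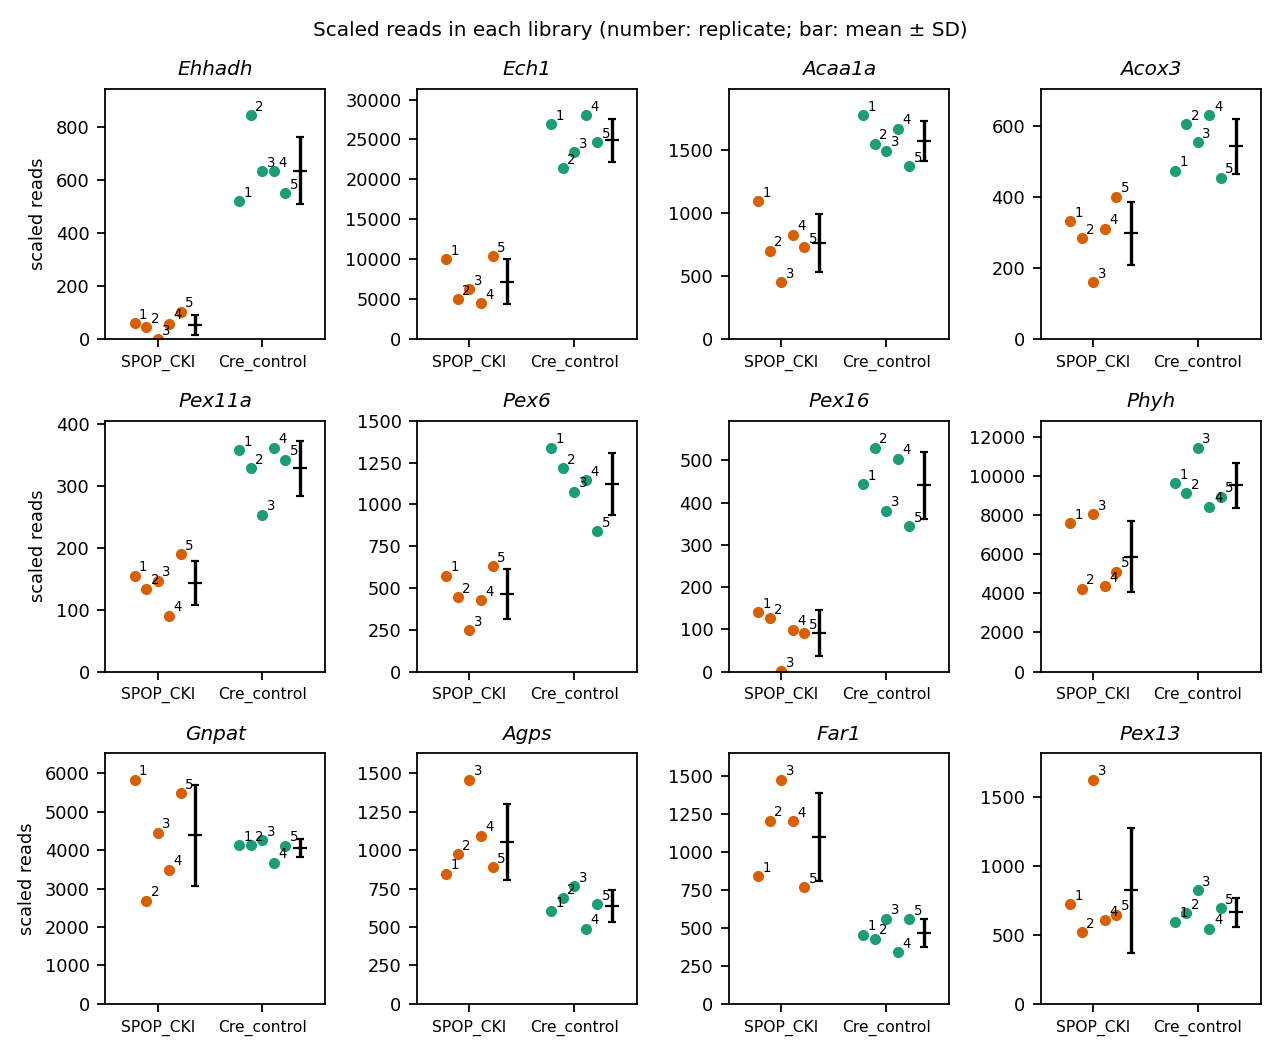
Scaled reads of 12 of the genes in each library, SPOP_CKI on the left and Cre_control on the right of each panel, each axis from 0. Points are libraries with their number, and bars are mean ± SD of 5 libraries. Ehhadh in SPOP_CKI lies between 0 and 104, below every control, while Pex13 and Gnpat overlap between the groups.

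Levels were also divided by gene length, the exon bases of all transcripts of a gene together, so ranks between genes are approximate. Among the oxidation genes, the order was the same in both groups except for Ehhadh. In SPOP_CKI, Ech1 stood at 3161 ± 1222 scaled reads per kilobase and Phyh at 3104 ± 961, which did not differ beyond their spread. In Cre_control, Ech1 was the highest of the 29 genes, at 10891 ± 1159 per kilobase, and Phyh the second, at 5035 ± 616. Ehhadh stood at rank 26 of 29 in SPOP_CKI (18.0 ± 12.5 per kilobase) and at rank 12 in Cre_control (214 ± 42.5). Far1 stood at rank 11 in SPOP_CKI (136 ± 36.1 per kilobase) and at rank 22 in Cre_control (58.0 ± 11.6). Many neighbours in these orders differ by less than their SD.

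Ether lipid synthesis starts with Gnpat and Agps, which build the ether-linked backbone inside the peroxisome, and Far1 supplies the fatty alcohol. Far1 (ENSMUSG00000030759, chromosome 7, 113513834 to 113571511, plus strand), the reductase on the peroxisomal membrane, rose in SPOP_CKI. It had 838, 1204, 1473, 1199.7 and 769 scaled reads in SPOP_CKI 1 to 5, against 453, 427, 559, 339 and 557 in Cre_control 1 to 5. Every SPOP_CKI library was above every control, with SPOP_CKI 3 the highest and SPOP_CKI 5 the lowest. Far1 was 2.32-fold higher (log2 1.21, SE 0.21, limma adjusted p = 0.00335), and the change was 1.09 without SPOP_CKI 3 and 1.24 without the libraries with Xist.

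Agps (ENSMUSG00000042410, chromosome 2, 75832177 to 75931350, plus strand), which exchanges the acyl chain for the fatty alcohol, rose too. It had 847, 974, 1457, 1093 and 888 scaled reads in SPOP_CKI 1 to 5, against 603, 688, 766, 488 and 648 in Cre_control 1 to 5. The groups did not overlap, and SPOP_CKI 1 was the closest to the highest control, Cre_control 3. Agps was 1.63-fold higher (log2 0.71, SE 0.18, limma adjusted p = 0.0184). With SPOP_CKI 3 left out the log2 difference was 0.58, and with all libraries that held Xist left out 0.64. The call was lost when each library was centred by transcript GC content (log2 0.29, adjusted p = 0.152), whereas that of Far1 was kept (log2 0.76, adjusted p = 0.0118).

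Gnpat, the acyltransferase of the first step, did not pass. It had 5828, 2689, 4453, 3490.2 and 5476 scaled reads in SPOP_CKI 1 to 5, against 4121, 4122, 4255, 3674 and 4112 in Cre_control 1 to 5. The SPOP_CKI libraries lay on both sides of the narrow control range. The log2 fold change was 0.06 (95% interval −0.40 to 0.52, adjusted p = 0.858). Whether Gnpat differed in its response from Agps and Far1 was not tested.

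Peroxins of membrane assembly bring proteins into the peroxisomal membrane, with Pex19 as their chaperone, Pex3 as its anchor and Pex16 acting early in the formation of that membrane. Pex16 (ENSMUSG00000027222, chromosome 2, 92374676 to 92381217, plus strand) had 140.0, 126, 0.876, 99.3 and 90.9 scaled reads in SPOP_CKI 1 to 5, against 444, 530.0, 381, 504 and 344 in Cre_control 1 to 5. All SPOP_CKI libraries were below all controls, and SPOP_CKI 3 held a single read. Pex16 fell, with a log2 fold change of −3.13 (SE 1.02, limma adjusted p = 0.0485). Without SPOP_CKI 3 the log2 fold change was −1.94 with a much smaller error (SE 0.19, adjusted p = 6.06e-05), and without the libraries with Xist it was −2.13 (adjusted p = 0.000278). The call was lost when SPOP_CKI 2, 4 or 5 or any single control was left out (adjusted p 0.0537 to 0.0978), and with no filter (adjusted p = 0.132) or a pseudocount of 0.5 (adjusted p = 0.0603). Of its exon bases, 7.15% also belong to Large2 on the opposite strand, which averaged 0.542 scaled reads in SPOP_CKI and 3.08 in Cre_control.

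Pex19 fell in SPOP_CKI, where it had 1745, 1159, 1103, 1566 and 1978 scaled reads, against 2599, 2687, 1985, 2309 and 2376 in Cre_control 1 to 5. The highest SPOP_CKI library, SPOP_CKI 5, was only just below the lowest control, Cre_control 3. It was 1.61-fold lower (log2 −0.69, SE 0.19, limma adjusted p = 0.0218), and the call was lost without Cre_control 1 (adjusted p = 0.0598) or Cre_control 2 (adjusted p = 0.0589). With SPOP_CKI 3 left out the log2 difference of Pex19 was −0.59, and with all libraries that held Xist left out −0.63. Pex3 averaged 422 ± 124 in SPOP_CKI and 329 ± 57.5 in Cre_control and did not pass (log2 0.32, 95% interval −0.16 to 0.81).

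Matrix enzymes are recognised by Pex5, the receptor of the carboxy-terminal targeting signal, and by Pex7, the receptor of the amino-terminal one, and dock at Pex13 and Pex14. None of these 4 genes passed, and SPOP_CKI 3 was the lowest or the highest of its group in each. Pex5 had 414, 489.8, 109, 399.9 and 339 scaled reads in SPOP_CKI 1 to 5, against 510.4, 579, 523, 620.0 and 456 in Cre_control 1 to 5, with a log2 fold change of −0.77 (95% interval −1.53 to −0.01). Pex7 had 452, 225, 626, 364 and 257 in SPOP_CKI 1 to 5, against 532, 571, 541, 532 and 562 in Cre_control 1 to 5, with a log2 fold change of −0.61 (95% interval −1.16 to −0.06). Thus SPOP_CKI 3 was the lowest library of its group for Pex5 and the highest for Pex7. Without it, Pex7 passed (log2 −0.81, adjusted p = 0.00845; −0.97 without all libraries with Xist) and Pex5 did not (log2 −0.39, adjusted p = 0.0694).

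The docking genes showed the same split. Pex13 had 723, 517, 1621, 604 and 645 scaled reads in SPOP_CKI 1 to 5, against 595, 657, 823, 544 and 693 in Cre_control 1 to 5 (log2 0.19, 95% interval −0.41 to 0.80). Pex14 had 249, 209, 69.2, 185 and 162 in SPOP_CKI 1 to 5, against 341, 238, 272, 309 and 258 in Cre_control 1 to 5 (log2 −0.80, 95% interval −1.47 to −0.13). SPOP_CKI 3 held the highest Pex13 and the lowest Pex14 of all 10 libraries. Without it, the log2 fold change of Pex13 was −0.09, and Pex14 passed with −0.50 (adjusted p = 0.0495), or −0.64 without all libraries with Xist (adjusted p = 0.0334). Of the exon bases of Pex14, 28.3% also belong to the antisense gene Gm17029, which averaged 75.6 scaled reads in SPOP_CKI and 25.2 in Cre_control, so these counts are uncertain.

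Used receptors are tagged with ubiquitin by RING ligases, among them Pex2 and Pex10, and drawn out of the membrane by a motor that contains Pex6 and is held at the membrane by Pex26. Both genes of the export step fell. Pex6 (ENSMUSG00000002763, chromosome 17, 46711463 to 46725541, plus strand) had 575, 444, 246, 428 and 632 scaled reads in SPOP_CKI 1 to 5, against 1340.2, 1217, 1077, 1146 and 839 in Cre_control 1 to 5. The groups were separate, SPOP_CKI 3 was the lowest, and Pex6 was 2.50-fold lower (log2 −1.32, SE 0.24, limma adjusted p = 0.00409). With SPOP_CKI 3 left out the log2 difference was −1.11, and with all libraries that held Xist left out −1.27.

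Pex26 had 95.8, 96.6, 58.7, 102 and 79.1 scaled reads in SPOP_CKI 1 to 5, against 211, 152, 139, 173 and 138 in Cre_control 1 to 5. The groups did not overlap, SPOP_CKI 3 was the lowest, and Pex26 was 1.89-fold lower (log2 −0.91, SE 0.23, limma adjusted p = 0.0155). With SPOP_CKI 3 left out the log2 difference was −0.78, and with all libraries that held Xist left out −0.85. The calls of Pex6 and Pex26 were lost with centring by GC content (Pex6 log2 −0.53, adjusted p = 0.103; Pex26 log2 −0.49, adjusted p = 0.0923), and that of Pex26 also without Cre_control 1 (adjusted p = 0.0514).

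The ligase genes did not pass. Pex10 had 225, 68.6, 154, 124 and 92.1 scaled reads in SPOP_CKI 1 to 5, against 235, 278, 228, 336 and 145 in Cre_control 1 to 5. SPOP_CKI 1 was near the typical control, the low Cre_control 5 made the groups overlap, and the log2 fold change was −0.94 (95% interval −1.66 to −0.22, adjusted p = 0.06). Pex10 passed without SPOP_CKI 3 (log2 −1.02, adjusted p = 0.0321) and without the libraries with Xist (log2 −1.52, adjusted p = 0.00249). Pex2 averaged 662 ± 180 in SPOP_CKI and 583 ± 45.9 in Cre_control (log2 0.15, 95% interval −0.27 to 0.56).

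Pex11a (ENSMUSG00000030545, chromosome 7, 79735957 to 79743131, minus strand), which elongates the membrane before peroxisomes divide, fell. It had 154, 134, 146, 89.7 and 189 scaled reads in SPOP_CKI 1 to 5, against 358, 328, 253, 361 and 342 in Cre_control 1 to 5. Every SPOP_CKI library was below every control, and here SPOP_CKI 3 was in the middle of its group. Pex11a was 2.34-fold lower (log2 −1.23, SE 0.21, limma adjusted p = 0.0032), and the change was −1.24 without SPOP_CKI 3 and −1.29 without the libraries with Xist.

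Beside 12.3% called lower and 10.0% higher over all genes tested, 5 of the 12 peroxins fell and none rose. The median log2 fold change of the peroxins was −0.79. The count of lower peroxins was 8 without SPOP_CKI 3, 2 without Cre_control 1 and 3 without Cre_control 2. Of all genes tested, 17.3%, 7.48% and 8.1% were called lower in these fits, and 6.94% were called higher without Cre_control 2.

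**Figure D3:**
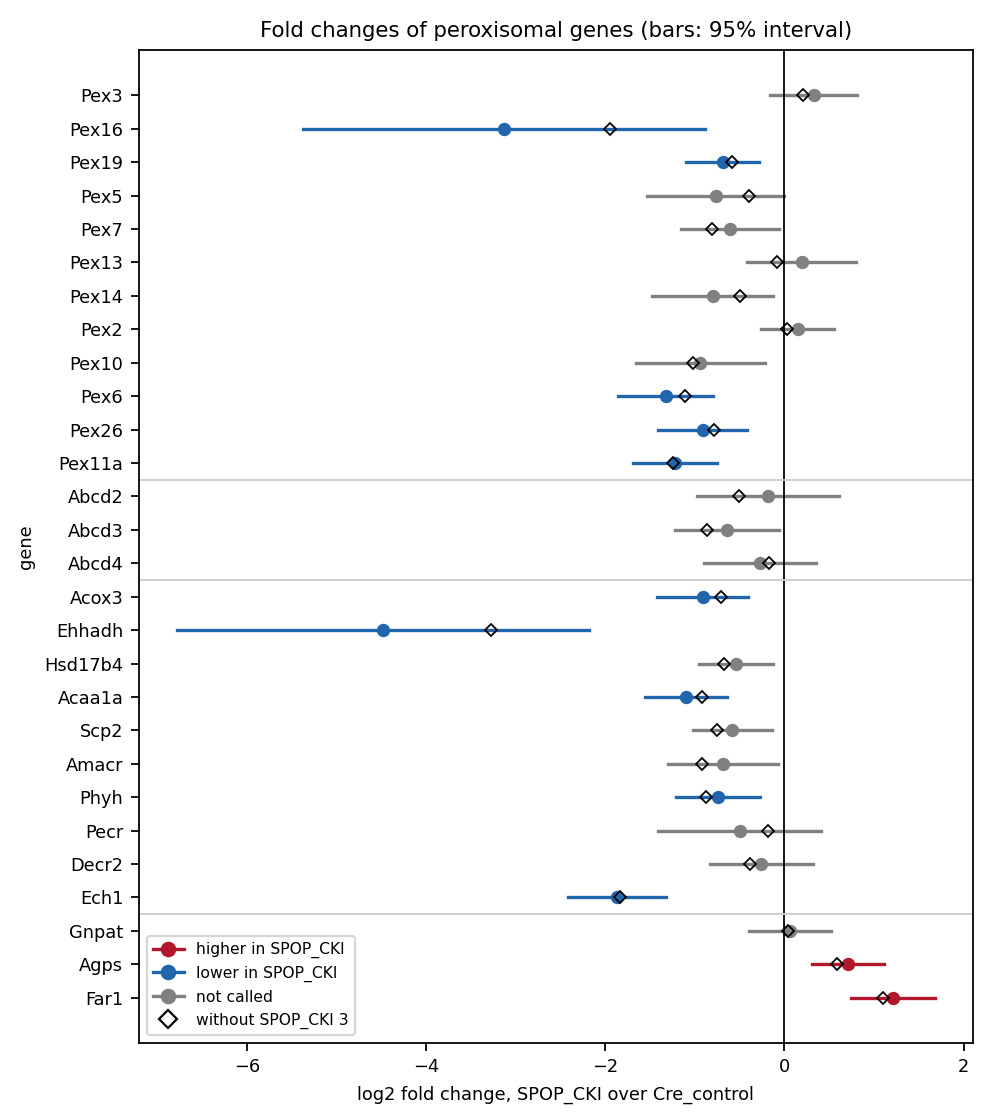
Log2 fold change of SPOP_CKI over Cre_control for the 28 tested genes with its 95% interval (filled points, blue for genes called lower, red for genes called higher, grey for the rest), and without SPOP_CKI 3 (open diamonds). The widest intervals belong to Ehhadh (−6.78 to −2.18) and Pex16 (−5.37 to −0.88), both with next to no reads in SPOP_CKI 3.

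None of the 3 transporters passed. Abcd3, which carries branched-chain and long-chain acyl-CoA into the peroxisome, had 1644, 859, 2723, 1388 and 1366 scaled reads in SPOP_CKI 1 to 5, against 2503, 2708, 2549.7, 1699 and 2304 in Cre_control 1 to 5. In 4 of 5 SPOP_CKI libraries it was below every control, while SPOP_CKI 3 was the highest of all 10. The log2 fold change was −0.64 (95% interval −1.22 to −0.06, adjusted p = 0.102), and −0.86 without SPOP_CKI 3 (adjusted p = 0.00794) or −0.98 without the libraries with Xist (adjusted p = 0.0117).

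Abcd2, a carrier of very long and polyunsaturated chains, averaged 128 ± 84.7 scaled reads in SPOP_CKI and 132 ± 37.5 in Cre_control (log2 −0.19, 95% interval −0.98 to 0.60). Its SPOP_CKI values were 63.6 to 108 in 4 libraries and 277 in SPOP_CKI 3. Abcd4, a relative that moves cobalamin out of lysosomes, averaged 105 ± 35.1 in SPOP_CKI and 123 ± 29.3 in Cre_control (log2 −0.28, 95% interval −0.90 to 0.35).

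Levels in SPOP_CKI 3 moved with the GC content of the transcripts. Of the 28 genes, it was the highest of the 5 SPOP_CKI libraries in 13 and the lowest in 10. Over all tested genes, SPOP_CKI 3 relative to the mean of the other 4 SPOP_CKI libraries had a median of 0.35 on the log2 scale among genes of 22.1% to 44.8% GC and of −1.27 among genes of 54.3% to 78.3% GC. The same classes had median fold changes between genotypes of 0.32 and −0.67. These fold changes include all SPOP_CKI libraries, and how much of them came from SPOP_CKI 3 was not tested. Of the 28 genes, 8 were in the class of lowest GC, 2 of which rose (Agps at 41.5% and Far1 at 36.9%) and none fell. In the class of highest GC there were 7, of which 5 fell (Pex16, Pex6, Pex26, Acaa1a and Ech1) and none rose. Over all genes tested, 12.3% were called lower and 10.0% higher. These shares are not given by GC class, so the counts by class have no background of their own.

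Ehhadh, at 47.0% GC, stood at −6.02 on the log2 scale in SPOP_CKI 3 relative to the other 4 libraries, against 0.10 for all genes of its GC class. With each library centred by GC content, 11 of the 28 fell and 1 rose, beside 9.32% and 8.3% of all genes. Pex6, Pex26 and Agps were no longer called, although they were in the fit without SPOP_CKI 3 (limma adjusted p = 0.000835, 0.0112 and 0.0149). Pex7, Scp2 and Abcd3 were called lower with centring. How far GC content accounts for the remaining differences was not tested.

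**Figure D4:**
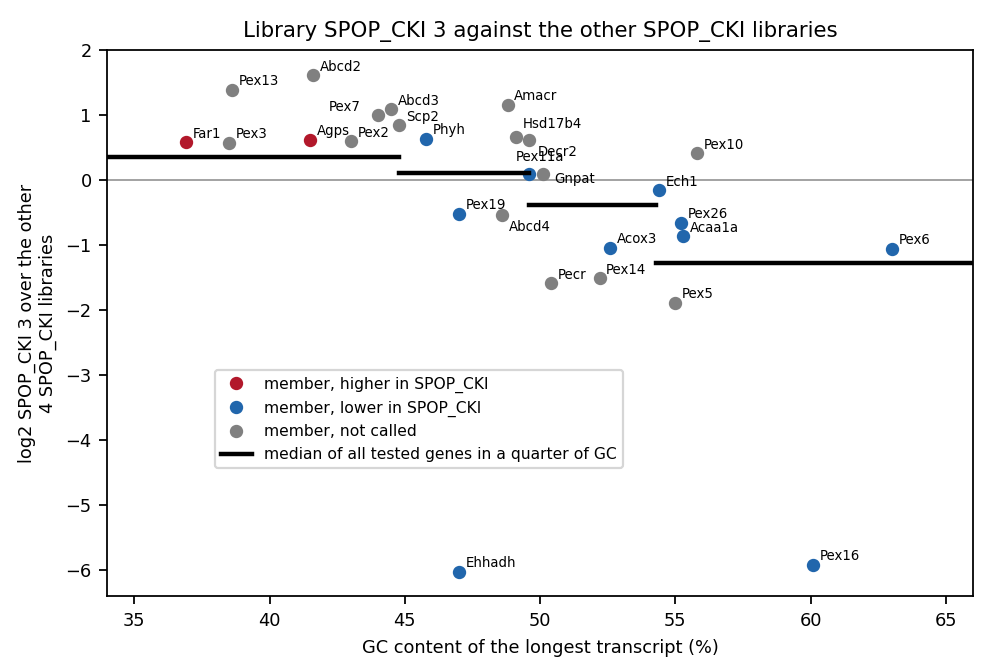
Level of the 28 tested genes in SPOP_CKI 3 over the mean of the other 4 SPOP_CKI libraries (y axis, log2) against the GC content of the longest transcript (x axis, %). Points are genes, coloured by their call between genotypes, and black lines are the medians of all tested genes in 4 GC classes of equal size, the outer ones running past the axis. Ehhadh at −6.02 and Pex16 at −5.92 lie far below the line of their class.

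The SPOP_CKI libraries also differed among themselves. The median over the 28 genes, as a percentage of the control mean, was 78.4% in SPOP_CKI 1, 49.0% in SPOP_CKI 2, 73.8% in SPOP_CKI 3, 64.2% in SPOP_CKI 4 and 57.8% in SPOP_CKI 5. In the controls it was 91.4% to 104%. SPOP_CKI 2 was the lowest library of its group in 11 of the 28 genes. The summed level of all 29 genes was 23955 to 39897 scaled reads in SPOP_CKI and 57364 to 62725 in Cre_control, and Ech1 was the largest term of that sum in every library but SPOP_CKI 3, where Phyh was.

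The genes whose deviations from their group means followed those of Ehhadh most closely were Gm45250, Tg, Rtp3, Lysmd1 and Apba1, with Pearson's r of 0.994 to 0.995 over 10 libraries. These 10 points share SPOP_CKI 3, the library in which Ehhadh had no read, and Gm45250, Tg and Rtp3 were also at 0 there. Without it, r was 0.81 to 0.92 over the other 9 libraries. The genes were picked for the highest r over the 10 libraries, which include these 9, so this is not a separate check. None of these genes was called between genotypes (limma adjusted p 0.168 to 0.779).

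Other genes of the peroxisome, taken from a list of 63, were measured beside the 29. Of the 52 that could be tested, 20 fell and 1 rose, beside 12.3% and 10.0% of all genes tested. Their median log2 fold change was −0.94. Mlycd, malonyl-CoA decarboxylase, averaged 659 ± 169 scaled reads in SPOP_CKI and 3947 ± 559 in Cre_control (log2 −2.61, limma adjusted p = 8.35e-05). Pxmp4, a peroxisomal membrane protein (log2 −1.86), Acsl1, which activates long-chain fatty acids (log2 −1.42), and Gstk1, a glutathione transferase (log2 −1.39), also fell. Dnm1l, the dynamin-like GTPase that cuts both peroxisomes and mitochondria, rose (log2 0.87, adjusted p = 0.0273). It was no longer called without Cre_control 1, without Cre_control 4, without the 3 libraries that held Xist and with GC centring.

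Of 17 genes of mitochondrial fatty acid oxidation, 16 fell and none rose, beside 12.3% and 10.0% of all genes tested. Their median was −1.19. Cpt1b, the muscle carnitine palmitoyltransferase, had the largest fall (log2 −2.67), with 7.80 ± 7.15 scaled reads in SPOP_CKI against 40.9 ± 28.4 in Cre_control. Of its exon bases, 81.4% also belong to the protein-coding gene Gm44502 on the same strand, so this value is uncertain. It was at 0 in SPOP_CKI 3, without which its log2 fold change was −2.05 (adjusted p = 0.0215), and it was called in 11 of 21 alternative fits (adjusted p up to 0.111). Acadvl, the very-long-chain acyl-CoA dehydrogenase, averaged 2965 ± 1462 in SPOP_CKI against 8671 ± 1435 in Cre_control (log2 −1.68, adjusted p = 0.00396), and 42.9% of its exon bases also belong to Dvl2 on the opposite strand. The count was 10 without SPOP_CKI 4, Cre_control 1 or Cre_control 3. In these fits 1294, 1063 and 1242 of all 14212 genes tested were called lower, against 1747 with all libraries. Whether peroxisomal and mitochondrial genes differed in their response was not tested.

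Of 12 nuclear receptors and coregulators known to act on peroxisomal genes, 3 fell and 1 rose, beside 12.3% and 10.0% of all genes tested. Pparg, the PPAR best known from fat cells, averaged 236 ± 22.8 scaled reads in SPOP_CKI and 539 ± 48.7 in Cre_control (log2 −1.19, limma adjusted p = 0.000525). Rxra, the partner of the PPARs on DNA, averaged 790.0 ± 387 in SPOP_CKI and 1643 ± 92.2 in Cre_control (log2 −1.23, adjusted p = 0.0235). The Rxra call was lost with GC centring, without Cre_control 1 and without Cre_control 4 (adjusted p up to 0.0562). Med1, a subunit of the mediator complex, was higher in SPOP_CKI (log2 0.57, adjusted p = 0.0452), a call lost in several other fits. Ppara, the receptor most tied to peroxisomal genes, had 285, 119, 395, 236 and 729.8 scaled reads in SPOP_CKI 1 to 5, against 267, 273, 305, 410.4 and 434 in Cre_control 1 to 5. The SPOP_CKI values were spread on both sides of the controls, and the log2 fold change was −0.15 (adjusted p = 0.799).

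Some markers of cell types were called between the groups, and their part in the results was not tested. Over all genes tested, 12.3% were called lower and 10.0% higher. Of 10 ventricular cardiomyocyte markers, 3 fell and 1 rose, and their summed level was 358159 to 682656 scaled reads in SPOP_CKI and 626627 to 817641 in Cre_control. Endothelial markers fell in 5 of 7 (sums of 16290.5 to 27289 in SPOP_CKI and 42410 to 57599 in Cre_control) and erythroid markers in 4 of 4 (4383 to 8040 in SPOP_CKI and 13188 to 27594 in Cre_control). Activated fibroblast markers rose in 2 of 5 tested (3763 to 45999.7 in SPOP_CKI and 1936 to 2973 in Cre_control) and macrophage markers in 2 of 7 (4704 to 23043 in SPOP_CKI and 4961 to 7574 in Cre_control). Fibroblast markers rose in 1 of 8 and smooth muscle and pericyte markers in 1 of 5. Neutrophil markers rose in 2 of 2 tested and atrial markers in 1 of 2 tested. The atrial marker that rose was Nppa (log2 3.22), and Myl4 did not pass (log2 −1.68). Of the brown fat markers, Ucp1 was at or near 0 in every library, with at most 3.30 scaled reads, whereas Cidea averaged 318 ± 90.3 in SPOP_CKI and 498 ± 115 in Cre_control and did not pass. Hepatocyte markers summed to 6.10 to 173 in SPOP_CKI, and to 10.7 to 23.8 in 4 controls and 1313 in Cre_control 1.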

How the data were processed

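Poly(A) RNA of 10 hearts was sequenced. Per the submitters' processing notes, featureCounts 1.5.0-p3 counted reads per gene on mm10 and DESeq2 1.20.0 compared the groups. In the sources used here, the aligner, annotation release and strand setting are not given. The authors deposited a scaled read signal per library, that is, reads divided by a size factor, beside group means and, per gene, their log2 fold change and p-value, raw and adjusted. Every signal value (100%) came out as whole reads at a tolerance of 0.001. No pair of libraries in a group agreed within sampling noise (chi-square per degree of freedom of 13.8 or more). The test was limma 3.58.1 (lmFit, eBayes with trend and robust; R 4.3.3) on log2(value + 1), two-sided. Benjamini-Hochberg adjustment ran over 14212 genes, those that reached 10 in 5 libraries or more. Intervals are at 95%. The added 1 understates the fold changes of low genes, while a library at 0, as SPOP_CKI 3 is for Ehhadh and Cpt1b, can carry them beyond the ratio of the means.

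The genes and lists were chosen with earlier results of these data known. All 29 genes are named. Of other lists, the called genes with the largest fold change are named (up to 4 per direction for other peroxisomal genes, otherwise up to 2), besides Ppara, Spop, Xist and the 5 genes most like Ehhadh. Litters and batches are not stated, and the p-values measure only how far these libraries spread, which may be technical. Alternatives were TMM scaling, quantile normalization, edgeR 4.0.16 and DESeq2 1.42.0 on recovered reads, pseudocounts of 0.5 and 10, no filter, array weights, replicate number as a block, centring within 20 bins of GC content, leaving out the libraries with Xist, and leaving out each library. The test was checked on simulated data.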

Additional observations from a re-analysis of the deposited data

Results flagged for a closer look

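In 5 of 58 groups of 5 libraries, 1 library lay far from the others by the ratio of its gap to the group's range. For independent, normally distributed values this happens in about 1 in 20 groups. The 58 groups share their libraries, and the rate for these scaled reads was not tested. SPOP_CKI 3 was high for Pex13, at 1621 scaled reads (517 to 723 in the other SPOP_CKI libraries). It was also high for Abcd2, at 277 (63.6 to 108 in the others). Acaa1b was at 7.09 in SPOP_CKI 5 (0 to 0.871 in the others), a difference of few reads. In the controls, Cre_control 4 was high for Pecr, at 209.5 (78.2 to 109 in the others), and low for Gnpat, at 3674 (4112 to 4255 in the others).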

How the results depend on the processing

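Under 21 alternatives, which gave 588 fold changes of the 28 genes, no called gene changed direction. Pex11a, Ehhadh, Acox3, Acaa1a, Ech1 and Far1 were called in all 21. Of the 28, genes called lower (10) numbered 17 with array weights and 17 without the libraries with Xist, and 6 to 17 with 1 library left out. Peroxins called lower (5) numbered 8, 8 and 2 to 8 in the same fits, oxidation genes (5) 8, 8 and 4 to 8, and transporters (0) 1, 1 and 0 to 1, and 1 with GC centring. With GC centring, 1 of the 28, an ether lipid gene, was higher (1 of 3). Other peroxisomal genes called higher (1) numbered 2 with array weights, 0 without the libraries with Xist, 0 with GC centring and 0 to 1 with 1 library left out. Mitochondrial genes called lower (16) numbered 10 to 17 with 1 library left out. Receptors called higher (1) numbered 0 with TMM scaling, 0 with no filter and 0 to 1 with 1 library left out, and those called lower (3) 1 with GC centring and 2 to 4. Over the table, array weights called 2429 genes higher and 2891 lower, and leaving out 1 library 889 to 1944 and 1063 to 2456. The causes were not tested. The median fold change of all genes was −0.11, and 0.03 with quantile normalization. The replicate block called 10 of the 28 lower and 2 higher and changed none of their calls. Correlations of same-numbered libraries were 0.03 to 0.16, and those of differently numbered libraries −0.24 to 0.14. These low values do not settle whether the numbers are pairs, and the main fit did not take them as pairs. Genes with few reads, such as Acaa1b, were limited by depth.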
